A study of Mus musculus with 7 samples.

Results

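Splicing factor and hnRNP genes were compared in satellite cells, the stem cells of skeletal muscle, purified by FACS through the GFP of Tg:Pax7-nGFP animals, whose nuclear reporter is driven by the Pax7 gene, so that the sort follows the activity of that gene. The genes were all those whose symbol begins with Srsf and a digit, Hnrnp, Sf3a, Sf3b, Snrp, or Prpf and a digit, each represented by the brightest probe set that the array annotation ties to that gene alone. They numbered 51 of the 13287 genes named on the array: 8 SR proteins (Srsf), 16 hnRNPs (Hnrnp), 9 Snrp proteins of the U1 and U2 particles and their Sm ring, 8 subunits of SF3 (Sf3a and Sf3b) and 10 Prp factors (Prpf). The samples were 3 arrays of cells isolated 4 days after death (D4PM), 2 arrays of cells isolated 2 days after death (D2PM) and 2 arrays of cells from old mice of 24 to 26 months. All 3 groups carried the same transgene, the labels give no treatment, and all were labelled quiescent. A legend of the study gives an age in weeks for the mice of the post-mortem data set, so the age of the mice and the time after death cannot be told apart in any comparison with old cells. The series title and design text give other ages for the living mice (young adult, and weeks in place of months); the array labels and the methods were followed here. Whether arrays of 1 group represent different mice is not given in the sources used here, so the p-values measure only the spread between these arrays, which may be technical.

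Introns are removed from nuclear pre-mRNA by the spliceosome, which is built from small nuclear ribonucleoproteins (snRNPs). Each snRNP holds a ring of Sm or LSm proteins around its RNA, with proteins of its own such as SF3 in the U2 particle, and Prp factors act in the U4/U6.U5 tri-snRNP and at the catalytic core. SR proteins mostly bind exonic enhancers and favour recognition of the exon, whereas hnRNPs coat nascent transcripts and often oppose it, so that the balance of both families shapes alternative splicing. Many genes of both families also regulate their own mRNA by an exon that leads to nonsense-mediated decay. A probe set of this array sums probes along the gene, so its value does not tell these isoforms apart. Nor can fewer cells of a type and less RNA per cell be told apart in sorted bulk samples.

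All 51 genes were measured above the filter on dim probe sets, a mean log2 value of 5.12 over the 7 arrays, and entered the fit of 9944 genes. They were bright: their median level was 9.08 on the log2 scale of RMA (a method that corrects background, normalises arrays and summarises probes), the median gene among them lay at percentile 90.3 of tested genes, and 49 lay above the 50th percentile. The hnRNPs had a median level of 9.97, the SR proteins 9.27, the Snrp proteins 9.27, the SF3 subunits 8.25 and the Prp factors 7.55. Levels of different probe sets depend on the probes, so these values place the genes within the array and do not rank transcripts by abundance. Srsf3, Srsf7, Srsf12, Hnrnpa0, Snrpb, Sf3b2, Prpf6 and Prpf18 were not analysed here. Hnrnpa1, Hnrnpa3, Hnrnph3, Snrpf, Snrpn and the pseudogene Hnrnpa1l2-ps2 share their probe sets with other genes and were left out.

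The sorted cells carried satellite cell transcripts at high level in every group (Pax7 between 9.87 and 10.52 and Myf5 between 10.99 and 11.44 on the 7 arrays; of 14 tested satellite cell markers 4 were higher and 1 was lower in post-mortem cells), but markers of other cells differed between the groups. Of the 17 endothelial markers 10 were higher in post-mortem cells and 0 lower; the mean level of the list was 7.27, 7.04 and 6.71 in D4PM cells, 6.73 and 6.72 in D2PM cells, and 6.40 and 5.77 in old cells. Of 11 tested myofibre markers 9 were higher, with a mean level of 8.47 to 8.79 on D4PM arrays, 8.52 to 8.67 on D2PM arrays and 7.37 to 7.76 on old arrays, and so were 2 of 3 tested Schwann cell markers. Of 6 tested macrophage and monocyte markers 0 were higher and 1 was lower, and 0 of 7 tested fibroadipogenic progenitor markers passed the threshold. No lymphocyte marker reached the filter, and Ptprc, which marks all leukocytes, stayed between 3.89 and 4.34. The part of these transcripts in the results below was not tested.

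The first question was whether splicing genes stood at other levels in post-mortem cells (the mean of D2PM and D4PM) than in old cells. The calls among SR proteins and hnRNPs were all lower in post-mortem cells, whereas Snrp proteins held calls in both directions (plot of the change of each gene). With limma and a Benjamini-Hochberg adjusted p under 0.05 over all genes tested, 19 of the 51 genes were lower and 4 were higher, against 14.7% lower and 14.4% higher among all genes tested. The median change was -0.30 on the log2 scale over the 51 genes and 0.00 over all genes tested, and 40 of the 51 changes lay below 0. In 30 genes all 5 post-mortem arrays lay below both old arrays, which held for 23.2% of all genes tested, and in 4 genes they lay above both (22.8%). Leaving out old replicate 2 reduced the count to 8, all lower, with 8.63% of all genes tested still called; leaving out D2PM replicate 1 or D2PM replicate 2 gave 15 and 14. The 8 genes called whichever array was left out were Srsf1, Srsf5, Srsf6, Srsf10, Hnrnpu, Hnrnpf, Sf3b3 and Prpf4b.

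**Figure D1:**
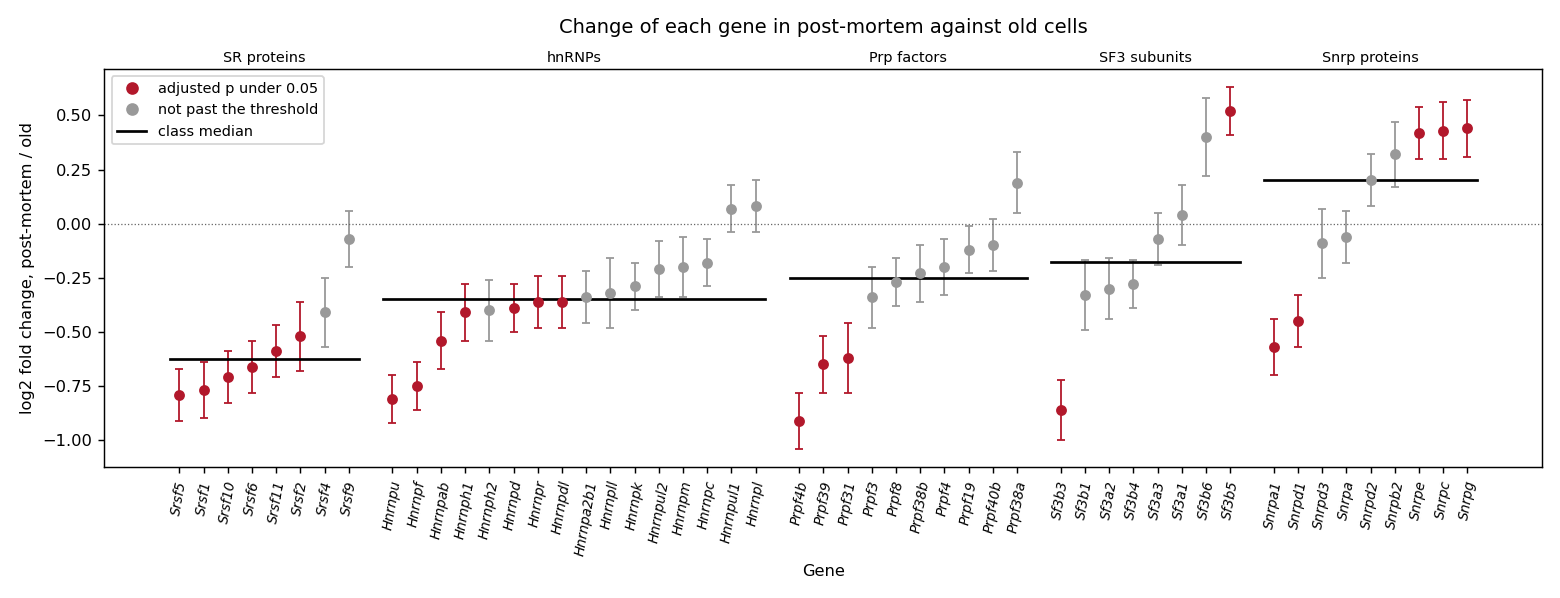
Log2 fold change of the 51 genes in post-mortem against old cells, by class and sorted within it; points are limma estimates, bars their standard errors and black lines the class medians. All 8 SR proteins lie below 0, while 5 of the 9 Snrp proteins lie above it.

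Promoters were then set side by side, since many of the genes moved together. RefSeq start sites (GRCm38.p6) gave the 250 bases before the start for 46 of the 51 genes. Of these, 36 had 1 such window and the others had several. A motif was counted for a gene if any of its windows held it. The 5 windows below, from 3 genes that were lower and 2 that were higher in post-mortem cells, are shown to let their composition be compared. They do not stand for all windows. Snrpe, another higher gene, had neither of the motifs marked below, and 6 of the 18 lower genes with a window had an ETS motif. Capitals mark GC boxes (GGGCGG or its reverse complement) and ETS motifs (CCGGAAG or its reverse complement); overlapping matches run together.
Srsf1, chr11:88047123-88047372, + strand: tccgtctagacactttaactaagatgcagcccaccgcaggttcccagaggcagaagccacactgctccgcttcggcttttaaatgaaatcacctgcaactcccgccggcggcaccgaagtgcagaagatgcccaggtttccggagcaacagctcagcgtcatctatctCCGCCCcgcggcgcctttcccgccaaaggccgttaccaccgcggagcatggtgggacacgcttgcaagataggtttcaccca
Srsf6, chr2:162931258-162931507, + strand: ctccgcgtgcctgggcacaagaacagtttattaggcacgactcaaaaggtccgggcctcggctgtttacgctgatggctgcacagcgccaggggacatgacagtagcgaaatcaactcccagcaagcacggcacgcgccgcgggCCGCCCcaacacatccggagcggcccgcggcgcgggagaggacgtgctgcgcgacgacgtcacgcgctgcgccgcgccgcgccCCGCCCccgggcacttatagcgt
Hnrnpu, chr1:178337816-178338065, - strand: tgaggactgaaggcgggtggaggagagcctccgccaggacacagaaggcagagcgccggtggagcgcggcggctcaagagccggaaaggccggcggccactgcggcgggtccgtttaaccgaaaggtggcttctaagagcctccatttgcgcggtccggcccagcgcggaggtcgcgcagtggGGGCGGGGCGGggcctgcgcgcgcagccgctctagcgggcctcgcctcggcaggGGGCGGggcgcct
Snrpc, chr17:27839837-27840086, + strand: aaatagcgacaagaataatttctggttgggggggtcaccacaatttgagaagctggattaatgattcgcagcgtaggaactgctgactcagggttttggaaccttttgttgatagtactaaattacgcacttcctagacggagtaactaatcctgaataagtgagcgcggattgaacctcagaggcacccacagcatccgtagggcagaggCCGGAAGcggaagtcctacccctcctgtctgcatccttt
Snrpg, chr6:86371290-86371539, + strand: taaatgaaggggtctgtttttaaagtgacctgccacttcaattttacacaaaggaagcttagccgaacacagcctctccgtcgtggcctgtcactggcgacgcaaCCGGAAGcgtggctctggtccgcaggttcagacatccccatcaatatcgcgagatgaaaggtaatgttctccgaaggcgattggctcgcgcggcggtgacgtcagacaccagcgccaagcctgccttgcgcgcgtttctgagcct

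A GC box stood before the start in Srsf1, Srsf6 and Hnrnpu and in all 8 SR protein genes, and in 16 of the 18 lower genes with a window, in 16 of the 25 genes that did not pass and in 0 of the 3 higher genes with a window. Over the 46 genes it stood in 32, or 69.6%. It also stood in 64.3% of the 7877 tested genes with a window, in 70.7% of all tested genes that were lower and in 61.0% of those that were higher. An ETS motif stood before 34.8% of the 46 genes, among them Snrpc and Snrpg, before 15.1% of the tested genes and before 7.83% of all 27025 genes with a window. It stood in 6 of the 18 lower genes, in 8 of the 25 that did not pass and in 2 of the 3 higher genes. Over all tested genes it stood in 17.5% of those that were lower and 12.9% of those that were higher. Both strands were searched for 7 motifs in all, counting the GC box and the ETS motif. CCAAT stood before 45.7% of the 46 genes and 39.3% of tested genes, TATAAA before 8.70% and 8.24%, CACGTG before 13.0% and 9.90%, TGACGTCA before 4.35% and 3.06%, and AAGATGGC before 2.17% and 2.36%. Among genes with 1 window, CACGTG stood before 5.56% of the 36 and 8.43% of tested genes, and TGACGTCA before 2.78% and 2.93%. The GC box stood there before 69.4% and 61.4%, and the ETS motif before 30.6% and 14.1%. CCAAT stood before 41.7% and 36.1%, TATAAA before 8.33% and 6.84%, and AAGATGGC before 2.78% and 2.16%. A match is a run of letters and was not tested as a site. The motifs were chosen after the changes were known.

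All 8 SR proteins had an estimate below 0, with a median of -0.63, and 6 passed the test. Srsf5, which binds exonic enhancers, had 10.84, 10.76 and 10.88 in D4PM cells, 11.01 and 11.10 in D2PM cells, and 11.87 and 11.60 in old cells. Every post-mortem array lay below both old arrays by at least the distance between the old arrays, and D4PM lay below D2PM. The change was -0.79 ± 0.12 (standard error), or 0.577-fold, with an adjusted p of 0.000788 in limma. Srsf1, the founding member of the family, had 8.57, 8.65 and 8.73 in D4PM cells, 8.72 and 8.66 in D2PM cells, and 9.25 and 9.63 in old cells. The 5 post-mortem arrays spanned less than the 2 old arrays, and the change was -0.77 ± 0.13 (limma adjusted p = 0.0015).

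Srsf10, known as a splicing repressor once dephosphorylated, had 9.52, 9.43 and 9.54 in D4PM cells, 9.77 and 9.60 in D2PM cells, and 10.20 and 10.41 in old cells, a change of -0.71 ± 0.12 (limma adjusted p = 0.00139). Srsf6 had 9.04, 8.99 and 9.21 in D4PM cells, 9.27 and 9.27 in D2PM cells, and 9.81 and 9.87 in old cells, a change of -0.66 ± 0.12 (limma adjusted p = 0.00173). In both genes the 3 groups were separate and in the same order, with D4PM lowest and old highest. Srsf11 changed by -0.59 (limma adjusted p = 0.00422). Srsf2, which also acts in transcription elongation, spread widely among the D4PM arrays (10.32, 9.71 and 9.94, against 10.05 and 10.13 in D2PM and 10.44 and 10.67 in old cells); its change of -0.52 had a limma adjusted p of 0.0306 and lost the call in 5 of the 7 fits that left out an array. Srsf4 (-0.41, adjusted p = 0.0843) and Srsf9 (-0.07, adjusted p = 0.701) did not pass in limma; only in Srsf9 did post-mortem and old arrays overlap. Between 4 (without old replicate 2) and 7 (without D4PM replicate 1) SR proteins were called lower when an array was left out.

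**Figure D2:**
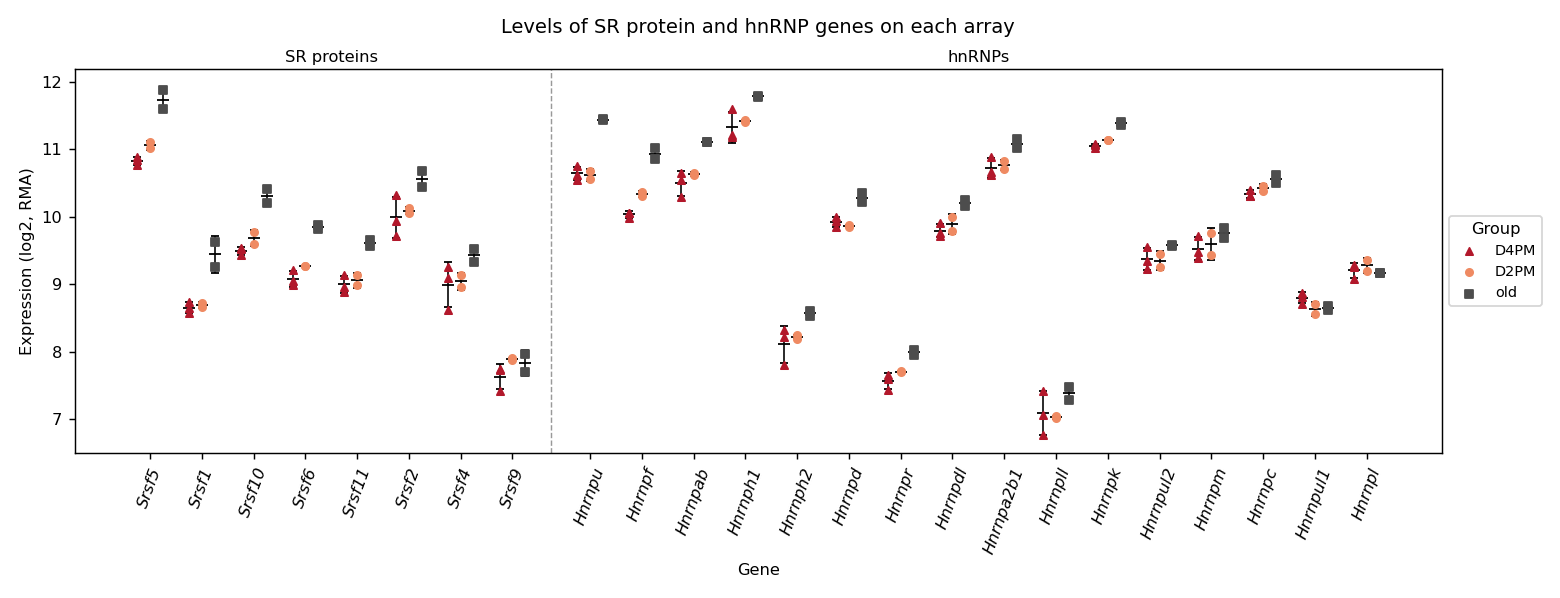
Log2 RMA level of each SR protein and hnRNP gene on every array, with D4PM (triangles), D2PM (circles) and old (squares) side by side and the mean ± SD of each group; SD of D2PM and old rests on 2 arrays. The old arrays lie above all post-mortem arrays in 7 of the 8 SR protein genes and 12 of the 16 hnRNP genes.

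Of the 16 hnRNPs 7 were lower and 0 higher, with a median change of -0.35. Hnrnpu, which binds nuclear RNA and chromatin at scaffold attachment regions, had 10.75, 10.55 and 10.62 in D4PM cells, 10.56 and 10.68 in D2PM cells, and 11.43 and 11.44 in old cells. The gap to the old arrays exceeded the whole range of the post-mortem arrays, and the change was -0.81 ± 0.11, or 0.572-fold (limma adjusted p = 0.000581). Its relatives Hnrnpul1 (0.07, adjusted p = 0.681) and Hnrnpul2 (-0.21, adjusted p = 0.235) did not pass in limma, and the difference between the genes was not tested. Hnrnpf, which binds runs of G near exons, had 10.06, 9.98 and 10.06 in D4PM cells, 10.37 and 10.30 in D2PM cells, and 10.85 and 11.01 in old cells, a change of -0.75 ± 0.11 (limma adjusted p = 0.000788). Hnrnph1, of the same subfamily, changed by -0.41 (limma adjusted p = 0.0388).

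Hnrnpab had 10.64, 10.29 and 10.55 in D4PM cells, 10.65 and 10.61 in D2PM cells, and 11.10 and 11.10 in old cells, and changed by -0.54 (limma adjusted p = 0.00753). Its relatives Hnrnpd, an AU-rich element binding protein, and Hnrnpdl were also lower (-0.39 and -0.36), as was Hnrnpr (-0.36). Of other well-studied hnRNPs, Hnrnpa2b1 (-0.34, adjusted p = 0.0583), Hnrnpk, a poly(C) binding protein (-0.29, adjusted p = 0.0631), and Hnrnpc, which binds U-rich tracts (-0.18, adjusted p = 0.251), did not pass in limma, although all 5 post-mortem arrays lay below both old arrays in each. Hnrnpl, which binds CA repeats, had an estimate of 0.08 (limma adjusted p = 0.631). The count of 7 was sensitive to single arrays: it was 4 without D4PM replicate 2 or 3, but 10 without D4PM replicate 1. Of all genes tested 27.6%, 27.3% and 28.3% were called in these fits, against 29% with every array. Leaving out an old or D2PM array keeps 1 array in that group, and fewer hnRNPs and fewer of all genes tested then passed. In each of those fits 14 of the 16 estimates lay below 0. With the replicate number as a block the count of hnRNPs was 4, and 29% of all genes tested were called.

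The Snrp proteins had a median change of 0.20, with 3 higher, 2 lower and 4 not past the threshold. Among the proteins of the Sm ring, Snrpe had 10.50, 10.81 and 10.69 in D4PM cells, 11.00 and 10.89 in D2PM cells, and 10.41 and 10.36 in old cells, a change of 0.42 ± 0.12 (limma adjusted p = 0.0237). Snrpg had 11.07, 11.20 and 11.17 in D4PM cells, 11.27 and 11.18 in D2PM cells, and 10.93 and 10.55 in old cells, a change of 0.44 ± 0.13 (limma adjusted p = 0.0244). All post-mortem arrays lay above both old arrays in both genes, with D2PM cells holding the highest array. Snrpd1, of the same ring, ran the other way, with 10.21, 10.32 and 10.13 in D4PM cells, 10.56 and 10.45 in D2PM cells, and 10.72 and 10.91 in old cells, a change of -0.45 ± 0.12 (limma adjusted p = 0.0143). Snrpd2 (0.20) and Snrpd3 (-0.09) did not pass the threshold.

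Of the proteins particular to U1 and U2, Snrpc (U1-C), which helps U1 pair with the 5′ splice site, had 8.03, 8.43 and 8.07 in D4PM cells, 8.45 and 8.29 in D2PM cells, and 7.85 and 7.84 in old cells, a change of 0.43 ± 0.13 (limma adjusted p = 0.0336). Snrpa1 (U2-A′) had 7.84, 7.76 and 7.61 in D4PM cells, 8.17 and 7.95 in D2PM cells, and 8.34 and 8.59 in old cells, a change of -0.57 ± 0.13 (limma adjusted p = 0.0074). Of these 2 genes, the U1 member was thus higher and the U2 member lower in post-mortem cells. Snrpa (U1-A, -0.06) and Snrpb2 (U2-B″, 0.32) did not pass. None of the 5 calls among Snrp proteins held without old replicate 2, and the 3 higher calls were also lost without D2PM replicate 1 and without D2PM replicate 2, with 1 left without old replicate 1.

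**Figure D3:**
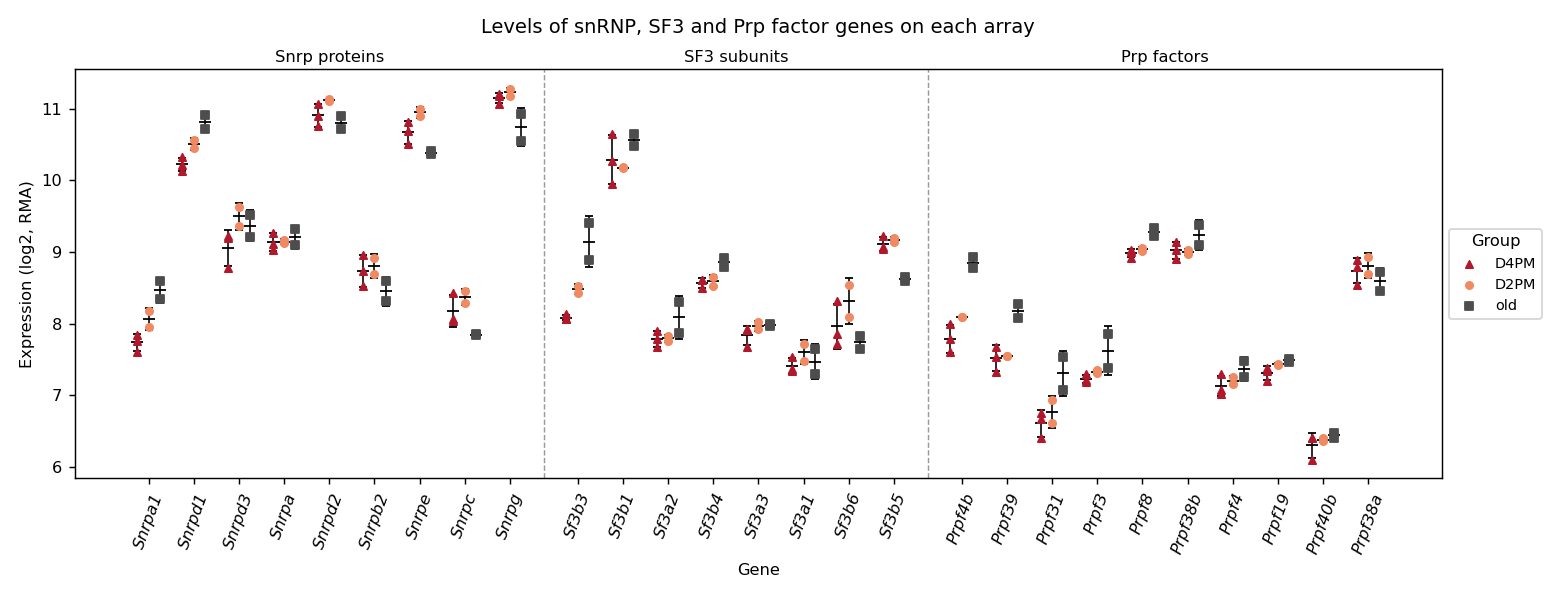
Log2 RMA level of each Snrp protein, SF3 subunit and Prp factor gene on every array, drawn as for SR proteins and hnRNPs. Snrpe, Snrpg, Snrpc and Sf3b5 are the genes whose post-mortem arrays all lie above both old arrays.

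The SF3 subunits, which hold U2 at the branch point, had a median change of -0.18, with 1 higher and 1 lower. Sf3b3, a scaffold subunit that also occurs in a histone acetyltransferase complex, had 8.06, 8.06 and 8.13 in D4PM cells, 8.43 and 8.53 in D2PM cells, and 8.89 and 9.40 in old cells. The groups were separate in the order D4PM, D2PM, old, and the change was -0.86 ± 0.14, or 0.549-fold (limma adjusted p = 0.0012). Sf3b5, a small subunit of the same SF3b complex, had 9.04, 9.22 and 9.07 in D4PM cells, 9.20 and 9.14 in D2PM cells, and 8.65 and 8.59 in old cells, a change of 0.52 ± 0.11 (limma adjusted p = 0.00585), and lost the call without old replicate 2 (adjusted p = 0.0685). Sf3b1, which contacts the branch point and is the target of splicing inhibitors, spread over 10.64, 9.95 and 10.27 in D4PM cells, beside 10.18 and 10.17 in D2PM and 10.48 and 10.64 in old cells, and did not pass (-0.33, limma adjusted p = 0.154). Sf3a1, of the SF3a complex, had an estimate of 0.04 (adjusted p = 0.864).

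Of the 10 Prp factors 3 were lower and 0 higher, with a median change of -0.25. Prpf4b, a kinase that phosphorylates tri-snRNP proteins, had the lowest change of the 51 genes. It had 7.99, 7.60 and 7.78 in D4PM cells, 8.09 and 8.09 in D2PM cells, and 8.77 and 8.93 in old cells, a change of -0.91 ± 0.13, or 0.532-fold (limma adjusted p = 0.000599). Prpf39, a U1-associated factor, changed by -0.65 ± 0.13 (limma adjusted p = 0.00374), with post-mortem arrays between 7.32 and 7.68 and old arrays at 8.08 and 8.27. Prpf31, a tri-snRNP protein that binds U4, changed by -0.62 ± 0.16 (limma adjusted p = 0.0132); its old arrays, at 7.08 and 7.53, lay far apart. Prpf8, the large protein at the catalytic core (-0.27, adjusted p = 0.0934), and Prpf3 (-0.34, adjusted p = 0.0843) did not pass in limma. Without D2PM replicate 2, 2 Prp factors were called, and without old replicate 2, only Prpf4b was.

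The second question was how the 2 times after death stood against old cells when taken separately; both comparisons use the same 2 old arrays. In D4PM cells 20 genes were lower and 1 was higher, against 15.5% and 12.4% of all genes tested, and in D2PM cells 12 were lower and 4 were higher, against 9.11% and 10.3%. Median centring of the arrays gave 12 lower and 2 higher in D2PM cells. SR proteins had a median change of -0.69 in D4PM and -0.56 in D2PM cells, with 6 and 5 called lower. Snrpe, Snrpg and Snrpc did not pass in D4PM cells (0.28, 0.40 and 0.33) and were called higher in D2PM cells (0.56, 0.48 and 0.53), while Snrpa1 and Snrpd1 were called lower in D4PM cells (-0.73 and -0.59) and did not pass in D2PM cells (-0.40 and -0.31). The difference between the days is given below, and none of these genes passed it. The single gene called higher in D4PM cells was Sf3b5 (0.49), which was also called in D2PM cells (0.54). The D2PM count rested on few arrays: it was 0 without D2PM replicate 1 (3.25% of all genes tested still called), 1 without D2PM replicate 2 (6.17%) and 2 without old replicate 2 (3.48%), against 19.4% of all genes tested with every array. The D4PM count was 8 without old replicate 2, with 9.16% of all genes tested called, against 27.9% with every array.

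The third comparison, D4PM against D2PM, asked whether the levels moved on between the days. None of the 51 genes passed in limma, against 0.0302% lower and 0.161% higher of all genes tested. Student's t-test with adjustment also gave 0. In limma 5 of the 51 genes had an unadjusted p under 0.05, as did 772 of all 9944 genes tested. These 5 were Snrpd3 (-0.44), Sf3b3 (-0.39), Snrpa1 (-0.32), Hnrnpf (-0.30) and Snrpd1 (-0.28). Estimates lay below 0 in 44 of the 51 genes, with a median of -0.09 beside -0.03 for all genes tested, and in all 9 Snrp proteins, with a median of -0.21. A second quantile normalisation left 37 of the 51 and 8 of the 9 below 0. In 16 genes all D4PM arrays lay below both D2PM arrays (15.6% of all genes tested), and in 0 they lay above (9.69%). In Sf3b3 the D4PM arrays lay at 8.06 to 8.13, against 8.43 and 8.53 in D2PM cells, and in Snrpd3 at 8.77 to 9.22, against 9.63 and 9.36 in D2PM cells.

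The genes that act with these factors were described from lists of the pathway (plot of other genes of the splicing pathway). Their counts stand beside the 14.7% lower and 14.4% higher among all genes tested. Of 21 tested SR-related proteins 10 were lower in post-mortem cells and 0 higher, with a median change of -0.36. Luc7l3, a U1-associated protein with an arginine-serine domain, had 9.20, 8.69 and 9.20 in D4PM cells, 9.04 and 9.12 in D2PM cells, and 9.90 and 10.18 in old cells, a change of -0.98 ± 0.16 (limma adjusted p = 0.00109). Srrm2, a scaffold of nuclear speckles, had 10.48, 9.95 and 10.32 in D4PM cells, 10.17 and 10.28 in D2PM cells, and 11.22 and 11.19 in old cells, a change of -0.97 ± 0.15 (limma adjusted p = 0.000754). Of the 6 tested kinases of SR proteins 2 were lower, Srpk1 (-0.78) and Clk4 (-0.45). Of 23 other snRNP and U2-associated proteins 8 were lower and 2 higher (median -0.30), among them the U1 protein Snrnp70 (-0.79), the helicase Ddx46 (-0.70), and on the higher side Snrnp27 (0.59) and Snrnp25 (0.44).

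**Figure D4:**
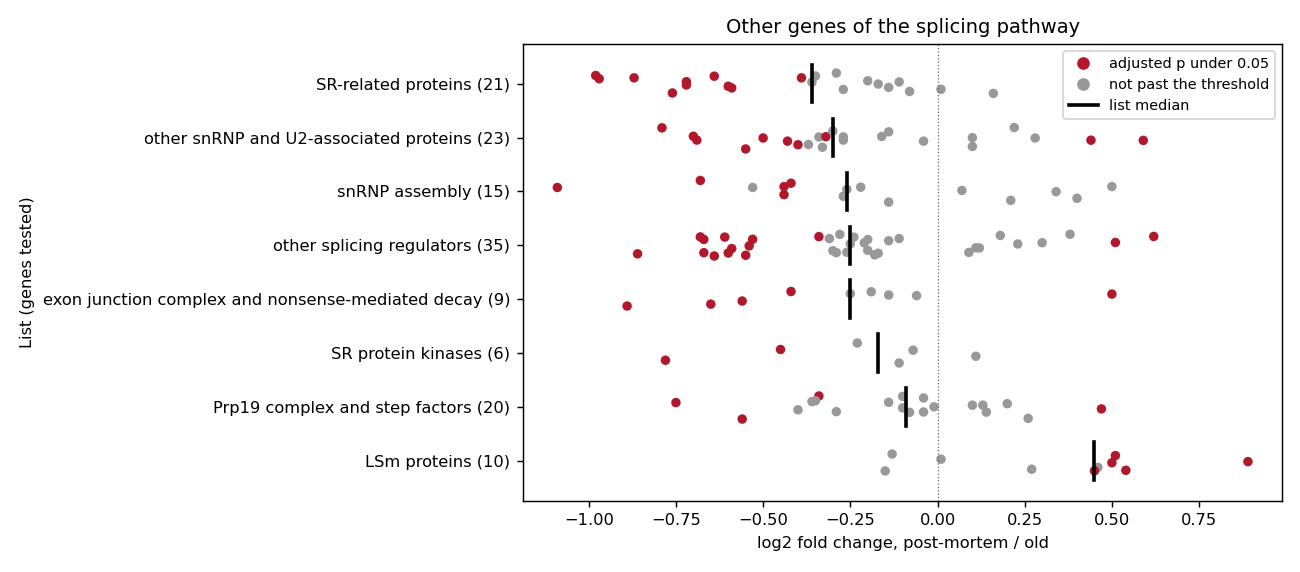
Log2 fold change in post-mortem against old cells of each tested gene in 8 lists of the splicing pathway; points are genes, vertical bars list medians, and the number of genes tested follows the name. The median of the LSm proteins is 0.45 and that of the SR-related proteins -0.36.

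The LSm proteins, most of which ring U6 or act in decay of mRNA, were the list with the highest median, at 0.45, with 5 of 10 higher and 0 lower. Lsm5 had 9.50, 9.85 and 9.52 in D4PM cells, 9.93 and 9.71 in D2PM cells, and 8.96 and 8.70 in old cells, a change of 0.89 ± 0.14 (limma adjusted p = 0.000973). Lsm8, which gives the nuclear ring its identity, changed by 0.54 (limma adjusted p = 0.00616), and Lsm1, which takes its place in the cytoplasmic ring, had an estimate of -0.15 (adjusted p = 0.485). Of 15 tested genes of snRNP assembly 5 were lower and 0 higher, led by Wdr77 (-1.09), a partner of the arginine methyltransferase that modifies Sm proteins, and by Gemin5 (-0.68), which binds snRNA in the SMN complex. Of 20 genes of the Prp19 complex and of the catalytic steps 3 were lower and 1 higher, a share of lower genes near that of all genes tested (Cwc22 at -0.75, Dhx15 at -0.56 and Bud31 at 0.47). Of 9 genes of the exon junction complex and nonsense-mediated decay 4 were lower and 1 higher (Smg1, a kinase of decay, at -0.89, Casc3 at -0.65 and Rbm8a at 0.50). Of 35 other splicing regulators 12 were lower and 2 higher (Fubp1 at -0.86, Tial1 at -0.68, the cold-inducible Cirbp at 0.62 and the muscle protein Rbm24 at 0.51).

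These list counts also changed when an array was left out. Without old replicate 2, when 8.63% of all genes tested were called, the genes called were 3 SR-related proteins, 2 of the other snRNP and U2-associated proteins, 1 LSm protein, 3 of the other splicing regulators and 0 in each of the other 4 lists. Without D2PM replicate 1, when 18.8% of all genes tested were called, they were 8 SR-related proteins, 3 LSm proteins and 5 of the other snRNP and U2-associated proteins. A single SR protein kinase was called without D2PM replicate 1, D2PM replicate 2 or old replicate 1, and 3 genes of snRNP assembly were called lower without D2PM replicate 1 or D4PM replicate 3 and 2 without D2PM replicate 2.

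In 8 of the 51 genes the brightest probe set is numbered among probe sets of another chromosome than that of the gene. The place of a probe set was read from the genes of its 5 neighbours in number on each side, since no probe coordinates were used. Each of the 8 genes also had a probe set numbered within its own chromosome (plot of probe sets of 8 genes). For Srsf5 the difference was -0.78 at that probe set and -0.79 at the brightest, for Hnrnpf -0.71 and -0.75, and for Srsf10 -0.47 and -0.71. Snrpc differed by 0.39 at its own chromosome and 0.43 at the brightest probe set, and Snrpd2 by 0.25 and 0.20. For Sf3b4 the difference was -0.12 at its own chromosome and -0.28 at the brightest, for Hnrnph2 -0.33 and -0.40, and for Hnrnpk -0.24 and -0.29. With these probe sets in the fit, 22 genes were called in place of 23, since Snrpc lost the call, and the median of the SR proteins was -0.55.

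**Figure D5:**
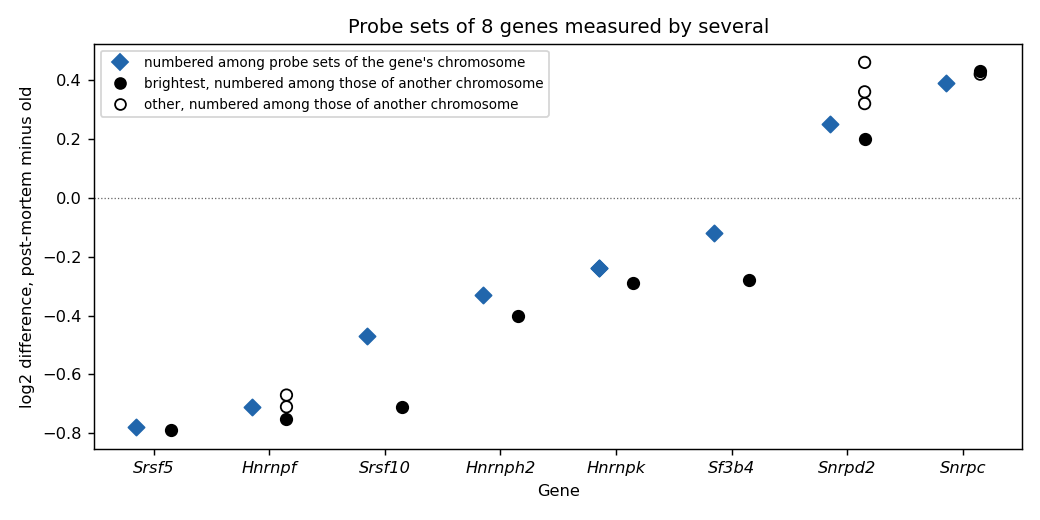
Difference of mean log2 levels, post-mortem minus old, at each probe set of the 8 genes whose brightest probe set (filled circle) is numbered among probe sets of another chromosome; diamonds are probe sets numbered within the chromosome of the gene. The sign was the same at every probe set of a gene.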

How the data were processed

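RNA of sorted cells was amplified (Ovation Pico V2) and hybridised to GeneChip Mouse Gene 1.0 ST arrays. The values deposited by the authors are log2 expression from RMA; RMA and limma are the tools named in the submitters' processing notes. Probes that were not expressed or did not vary had been removed by then, according to the methods, and the genome build is not given in the sources used here. Each share of genes called thus refers to varying genes. Without detection calls or depth, precision is limited by the number of arrays (3, 2 and 2). Of 18675 probe sets 14480 had a single gene, 774 several and 3421 none; names were matched through Entrez identifiers to RefSeq GRCm38.p6 (14425 matched). The 9944 of 13287 genes with a mean of at least 5.12 (25th percentile) were fitted with limma 3.58.1 (R 4.3.3), with a mean for each of 3 groups, moderated variances and 4 residual degrees of freedom, contrasts between groups and Benjamini-Hochberg adjustment over all genes tested. The fit was tested on simulated data. Figures were drawn with matplotlib 3.10.9.

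The genes and lists were chosen with earlier results of these data known. Genes named are up to 4 called genes with the largest rise and fall in each class, every gene called between D4PM and D2PM, a set given whatever its result (Srsf1, Srsf2, Srsf3, Srsf7, Hnrnpa1, Hnrnpa2b1, Hnrnpc, Hnrnpk, Snrpa, Snrpb, Snrpd1, Snrpn, Sf3a1, Sf3b1, Prpf3 and Prpf8), and up to 2 called genes with the largest rise and fall in each list; the other genes named were chosen after their values were seen. The alternatives changed the scaling (a second quantile normalisation or median centring), the filter (none, or the 50th percentile), the value of a gene (mean over its probe sets), the variance model (a trended, robust prior, or weights for arrays, or Student's t-test), and the arrays (replicate numbers as a block, each array left out, post-mortem arrays alone or as 1 group). Probe sets at the gene's own chromosome were added after the data were seen.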

Additional observations from a re-analysis of the deposited data

How the results depend on the processing

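No called change of the 27 genes that the naming rule covers changed sign under any alternative. Estimates near 0 did: Sf3a1 was -0.02 under median centring, -0.03 without D2PM replicate 2 and -0.13 without old replicate 1 (0.04 with all arrays), and Snrpa was 0.05 without old replicate 2 (-0.06 with all arrays). Over fits leaving out 1 array, Sf3a1 lay between -0.13 and 0.21, Snrpa between -0.18 and 0.05, Snrpd3 between -0.24 and 0.07 and Srsf9 between -0.21 and 0.06. For post-mortem against old cells the count of 23 genes was 8 to 28 when 1 array was left out and lay between 17 (Student's t-test, adjusted) and 27 (median centring, 3 higher and 24 lower) otherwise. For D2PM against old the count of 16 was 0 to 16 with an array left out and 0 with the adjusted Student's t-test, which called 0.151% of all genes tested; for D4PM against old the count of 21 was 8 to 23 and 0, with 0.141% of all genes tested. At an unadjusted p under 0.05 that test gave 18 and 22 genes, with no share of all genes tested to set beside them. In limma an unadjusted p under 0.05 held for 22 and 29 of the 51 genes, beside 3270 and 3953 of all 9944 genes tested. D4PM against D2PM gave 0 under every alternative run. The replicate number as a block gave 20, 13, 15 and 0 genes, beside 29%, 20.6%, 25% and 0.543% of all genes tested. For post-mortem against old cells the adjusted Student's t-test called 17.3% of all genes tested and median centring 29.5%. Deviations of same-numbered arrays correlated between -0.08 and 0.05, so these arrays shared little deviation. Whether the numbers pair the arrays cannot be told from so few arrays. Over all genes tested, median centring moved the median change to -0.05 and gave 1159 higher and 1771 lower calls for post-mortem against old cells, beside 1430 and 1457. For D2PM it gave 2 higher and 12 lower of the 51 genes, beside 4 and 12. Of the 23 genes called, 15 lost the call without old replicate 2. Of the 27 genes of the naming rule, which leaves out some called genes, 11 lost it without old replicate 2, 7 without D2PM replicate 2, 8 with the adjusted Student's t-test and 1 with the replicate number as a block (Hnrnph1); Hnrnpa2b1 passed under 4 of the alternatives that keep all arrays. At the 50th percentile filter 50 of the 51 genes were left. With 2 old arrays, a fit without 1 of them keeps a single old array, so a lost call does not show that the array made the change. Over the fits leaving out 1 array the estimate of Hnrnpab stayed between -0.58 and -0.49, whereas that of Snrpg ranged from 0.25 to 0.64. No depth or detection call shows which low values are measured.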

Other observations

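Among the 5 post-mortem arrays, D4PM replicate 2 held the lowest value in 30 of the 51 genes (58.8%), against 25% of all genes tested. It was lowest in 7 of 8 SR proteins, 9 of 10 Prp factors and 11 of 16 hnRNPs, but in 0 of 9 Snrp proteins, where D4PM replicate 1 was lowest in 6. The mean level of the SR proteins was 9.30, 9.06 and 9.26 in D4PM cells, 9.35 and 9.34 in D2PM cells, and 9.77 and 9.92 in old cells. The mean level of the Snrp proteins was 9.46, 9.65 and 9.48 in D4PM cells, 9.81 and 9.68 in D2PM cells, and 9.53 and 9.60 in old cells, so that the classes did not share an order of arrays. The mean over all genes tested lay between 7.11 and 7.17 on the 7 arrays.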
